A study of Homo sapiens with 4 samples.

Results

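Accessible regions that carry a binding site for the TEAD transcription factors were compared between MCF10A cells and MCF10A cells transformed by HRAS G12V. Of 60886 accessible regions, 1998 (3.28%, 95% Wilson interval 3.14 to 3.43%) contained the exact TEAD site ACATTCC on either strand. Peaks on the 22 autosomes and X from 4 ATAC-seq libraries were merged into regions when they overlapped by at least 1 bp, and the site was sought in 150 bp of hg19 at the midpoint of the best-ranked peak of each region. Peaks were ranked by the percentile of their peak-caller score within their own list. As a control of base composition, the same letters in reversed order but not complemented (the reversed site, CCTTACA) were sought in the same windows and found in 854 regions (1.4%, 1.31 to 1.5%), so that there were 2.34 TEAD regions for each reversed-site region. Both sites occurred in 43 regions.

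MCF10A is a nontransformed, immortalized human mammary epithelial line, and G12V is that line after lentiviral delivery of an HRAS V12 construct (pWZL hygro HRas V12) together with a GFP vector and selection in hygromycin. MCF10A and G12V cells were both grown with EGF, insulin, hydrocortisone, cholera toxin and horse serum. Each cell type had 2 biological replicates, and each library had its own peak list. HRAS V12 came from a viral vector and not from the cells' own locus, and cells of both types received EGF, so the comparison was not one of RAS signalling against none.

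TEAD proteins bind DNA at the sequence ACATTCC, known from muscle promoters as the M-CAT element, but activate transcription mainly with the coactivators YAP and TAZ. The Hippo kinase cascade (STK3, STK4, LATS1 and LATS2) holds YAP and TAZ in the cytoplasm, and growth at low density, stretching and loss of polarity release them. In epithelial cells TEAD often occupies enhancers together with AP-1, the FOS and JUN dimer that binds TGACTCA and is activated downstream of RAS and ERK. ATAC-seq detects open DNA by transposase insertion and does not show which protein is bound, so a site below is a match of letters in an accessible window.

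The windows below, in hg19 on the plus strand, belong to the TEAD regions that the results turn on. They were ranked by the lowest score percentile among the libraries that called the region. TEAD sites (which read GGAATGT when they lie on the minus strand) and AP-1 sites are in capitals, and a run of more than 7 capitals is a pair that shares a base. The first 3 were called in both G12V libraries and neither MCF10A library (gained), and the last of these also held an AP-1 site.
INSIG1, 27417 bp away, chr7:155061995-155062144: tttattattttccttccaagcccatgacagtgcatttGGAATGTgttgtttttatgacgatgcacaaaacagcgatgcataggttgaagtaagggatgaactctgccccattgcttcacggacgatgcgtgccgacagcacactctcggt
UBE2E3, 205735 bp away, chr2:181626166-181626315: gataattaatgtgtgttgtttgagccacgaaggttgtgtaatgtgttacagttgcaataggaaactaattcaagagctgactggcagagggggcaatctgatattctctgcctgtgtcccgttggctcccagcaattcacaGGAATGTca
intron of ANKRD42, chr11:82969033-82969182: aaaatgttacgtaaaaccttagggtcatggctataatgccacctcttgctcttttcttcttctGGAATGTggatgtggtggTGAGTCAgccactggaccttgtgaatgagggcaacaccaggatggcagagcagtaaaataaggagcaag

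The next 4 were called in both MCF10A libraries and neither G12V library (lost). The first and the last of them also held an AP-1 site.
METTL21EP, 31594 bp away, chr13:103563910-103564059: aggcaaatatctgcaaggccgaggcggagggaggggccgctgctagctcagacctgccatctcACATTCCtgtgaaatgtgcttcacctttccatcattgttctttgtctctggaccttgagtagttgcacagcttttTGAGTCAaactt
ATP11B, 404099 bp away, chr3:182107118-182107267: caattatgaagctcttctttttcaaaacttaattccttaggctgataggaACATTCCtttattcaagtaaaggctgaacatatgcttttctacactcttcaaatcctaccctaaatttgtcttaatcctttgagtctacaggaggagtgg
ENSG00000275163 intron, chr3:178424006-178424155: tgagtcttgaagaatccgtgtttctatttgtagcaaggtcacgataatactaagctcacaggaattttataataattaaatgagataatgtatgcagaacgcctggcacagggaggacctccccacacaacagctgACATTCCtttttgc
FN1, 173245 bp away, chr2:216473967-216474116: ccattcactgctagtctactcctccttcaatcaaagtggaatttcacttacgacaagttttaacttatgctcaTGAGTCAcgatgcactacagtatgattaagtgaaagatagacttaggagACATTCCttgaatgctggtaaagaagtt

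A further 2 windows came from regions called in all 4 libraries.
chromosome 6, PRIM2 nearest, chr6:58777788-58777937: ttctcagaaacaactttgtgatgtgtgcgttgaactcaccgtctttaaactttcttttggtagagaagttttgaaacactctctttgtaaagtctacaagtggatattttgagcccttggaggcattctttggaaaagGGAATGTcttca
GPR39 promoter, chr2:133174135-133174284: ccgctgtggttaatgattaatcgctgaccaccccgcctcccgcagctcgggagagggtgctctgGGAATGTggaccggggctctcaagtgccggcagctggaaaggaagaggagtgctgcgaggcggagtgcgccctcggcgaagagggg

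The last 5 lay within 100 kb of the transcription start site (TSS) of genes known as YAP/TAZ-TEAD targets. The gained window at CCN2 was added after its values had been seen.
CCN2 gained, 3529 bp upstream, chr6:132275967-132276116: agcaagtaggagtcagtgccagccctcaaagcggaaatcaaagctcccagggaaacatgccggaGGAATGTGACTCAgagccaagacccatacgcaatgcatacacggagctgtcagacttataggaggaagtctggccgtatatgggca
CCN2, 28990 bp upstream, chr6:132301428-132301577: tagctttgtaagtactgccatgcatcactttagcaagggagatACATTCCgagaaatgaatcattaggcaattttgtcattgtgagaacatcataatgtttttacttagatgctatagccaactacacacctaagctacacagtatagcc
CCN1, 26684 bp downstream, chr1:86073054-86073203: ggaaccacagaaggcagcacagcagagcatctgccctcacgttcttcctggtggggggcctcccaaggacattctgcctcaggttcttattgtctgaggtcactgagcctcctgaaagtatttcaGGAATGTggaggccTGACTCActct
AMOTL2, 52117 bp upstream, chr3:134146364-134146513: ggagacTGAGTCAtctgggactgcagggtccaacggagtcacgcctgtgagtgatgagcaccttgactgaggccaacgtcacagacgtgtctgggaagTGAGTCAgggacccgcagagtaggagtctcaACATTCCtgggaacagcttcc
FJX1 promoter, 442 bp upstream, chr11:35639492-35639641: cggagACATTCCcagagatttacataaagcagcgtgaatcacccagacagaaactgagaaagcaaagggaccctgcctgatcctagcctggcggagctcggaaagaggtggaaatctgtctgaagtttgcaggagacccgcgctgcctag

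The lists differed widely in size, with 12888 peaks in MCF10A replicate 1, 34463 in MCF10A replicate 2, 14042 in G12V replicate 1 and 46673 in G12V replicate 2. Read numbers are unknown here. List size was taken as the guide to depth, and a region absent from a list may lie just under the caller's threshold. Peaks overlapped the promoters of 4 of 10 mammary epithelial marker genes in at least 1 library (KRT17, LAMB3, ITGB4 and SFN). Those of KRT5, KRT14, TP63, KRT7, EPCAM and CDH1 had a peak in no library. By library the number of the 10 with a peak was 3, 3, 0 and 1 in the order above. None of the 6 promoters of marker genes of blood, endothelium, liver or muscle had a peak in any library. The label of the cells came from the sample titles. Few marker promoters bore it out, and in the G12V libraries only 1.

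The position of sites within the peaks was examined first, because it decides which bases the windows contain. AP-1 sites were densest at 50 to 100 bp below the midpoint in genome coordinates, with 1.56 sites per kb against 0.172 at the far end of the scan. TEAD sites were densest at 100 to 150 bp below it, with 0.256 sites per kb. The reversed site stayed between 0.0874 and 0.112 sites per kb over the whole scan. Within 300 bp of the midpoints of each library's own peaks, 55.6 to 56.6% of TEAD sites and 69.9 to 71.4% of AP-1 sites lay below the midpoint, while the reversed site had 48.6 to 50.9% there. The displacement was thus present in all 4 libraries. Its median was 63 to 66 bp for AP-1 and 27 to 34 bp for TEAD. The stated shift size of the peak caller was 75 bp, and its part in the displacement was not tested.

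**Figure D1:**
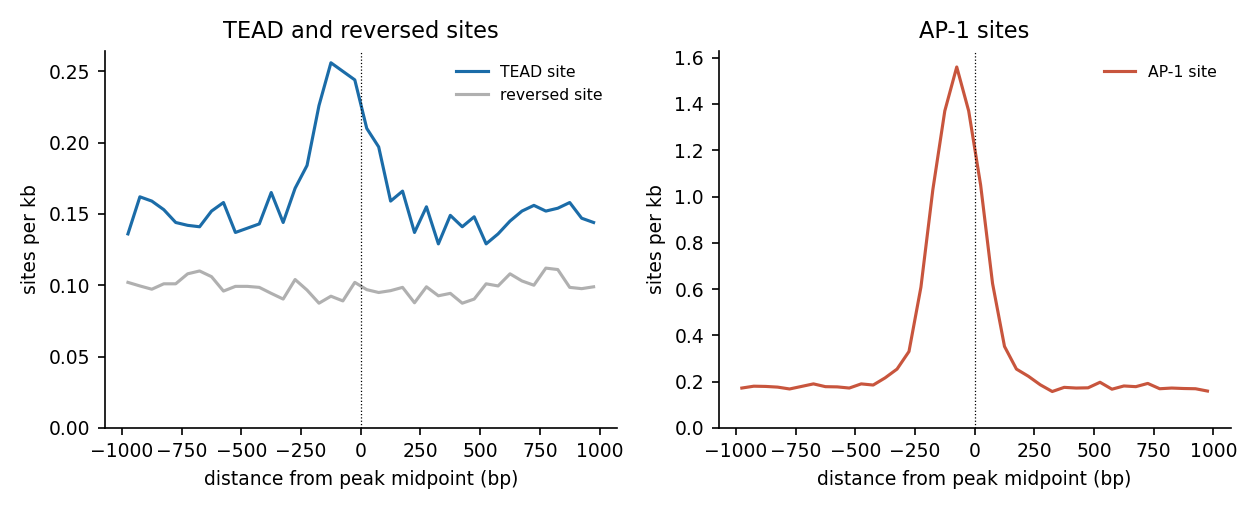
Sites per kb of genome in 50 bp bins against the distance from the midpoint of the best-ranked peak of all 60886 regions, for the TEAD and reversed sites (left) and the AP-1 site (right, different scale). The TEAD and AP-1 maxima lie left of the dotted midpoint line, while the reversed site is flat.

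The windows were kept at the midpoint, and each main result was repeated with windows moved 75 bp to lower coordinates, a setting chosen after the data had been seen. The moved windows held a TEAD site in 2153 regions (3.54%) and the reversed site in 811 (1.33%). They shared 1082 regions with the 1998. Which regions were members therefore depended on where the window was placed.

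TEAD sites were more frequent than the reversed site in every library. In MCF10A replicate 1, 360 of 12294 regions had a TEAD site (2.93%, 2.64 to 3.24%). In MCF10A replicate 2 the number was 1028 of 33311 (3.09%, 2.91 to 3.28%), in G12V replicate 1 it was 414 of 13431 (3.08%, 2.8 to 3.39%), and in G12V replicate 2 it was 1539 of 45966 (3.35%, 3.19 to 3.52%). The reversed site took 1.2, 1.34, 1.37 and 1.39% of the same regions. The intervals of the TEAD and reversed sites did not overlap in any library. The mean difference was 1.79 percentage points ± 0.113 (SD, n = 4 libraries), above 0 in 4 of 4 libraries (exact two-sided sign-flip permutation test, p = 0.12, the smallest p that 4 libraries can give, so this design cannot reach 0.05). Intervals on shares of regions cover counting error only, and regions are not replicates of a cell type.

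**Figure D2:**
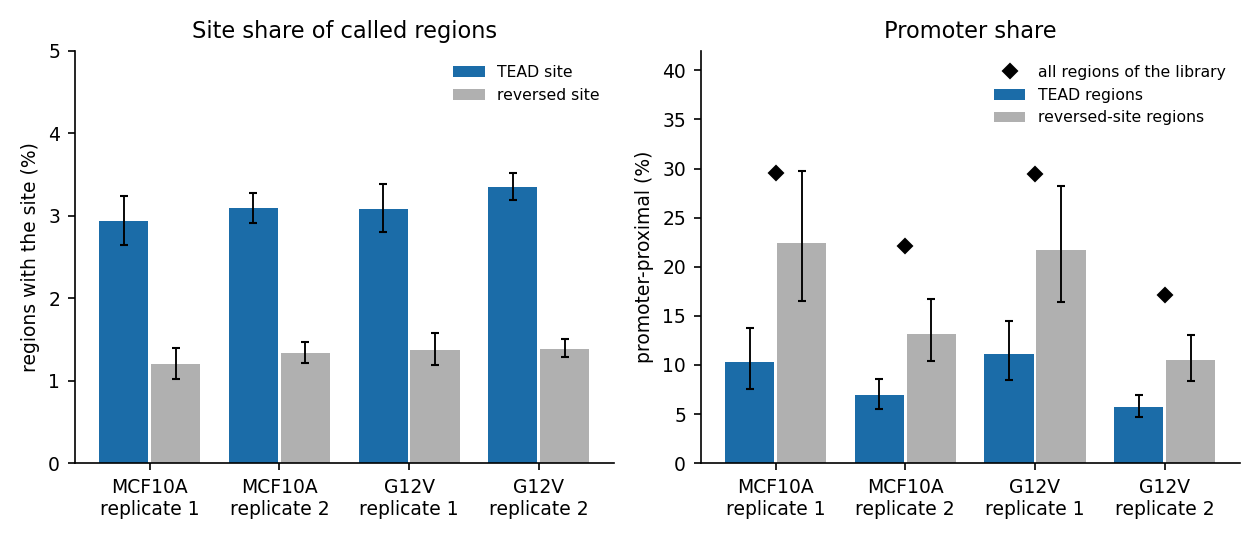
Left, percent of each library's regions with a TEAD site or the reversed site. Right, percent of these regions that were promoter-proximal, with all regions of the library as diamonds. Bars are shares and error bars 95% Wilson intervals. TEAD shares of 2.93 to 3.35% stand above reversed-site shares of 1.2 to 1.39%, and TEAD regions have the lowest promoter share in each library.

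Part of this excess was also present outside the accessible regions. In windows 1000 bp to either side that overlapped no peak, the TEAD site occurred in 2393 of 113873 (2.1%) and the reversed site in 1661 (1.46%). The share in accessible windows was therefore 1.18 points above its own surroundings for the TEAD site (95% Newcombe interval 1.02 to 1.35). The reversed site differed from its surroundings by -0.056 points (-0.171 to 0.0621). With all windows 1000 bp to either side as the control, those that overlapped a peak included, the mean per-library excess was 1.01 points (exact two-sided sign-flip permutation test, p = 0.12).

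The cell types were close to each other in TEAD share. The G12V libraries had a mean of 3.22% ± 0.188 and the MCF10A libraries 3.01% ± 0.112 (SD, n = 2 each). The difference was 0.208 points and did not pass a two-sided exact permutation test over libraries (p = 0.667, and no 2 against 2 comparison can go below 0.33). The lowest G12V value, in replicate 1, lay below the highest MCF10A value, in replicate 2. The rank of TEAD regions within the lists was also ordinary, with a median score percentile of 48.7 and 49.2 in the MCF10A replicates and 52.9 and 50.7 in the G12V replicates. Across deciles of the best percentile the TEAD share ranged from 2.85 to 3.65%, and the top decile had the lowest share. The lowest decile was close to it, at 2.91%. Promoters made up 44.8% of the regions in the top decile and 7.8% in the lowest, and their part in this range was not tested.

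The TEAD site was in 4.05% of gained and 3.84% of lost regions. Of the 1998 TEAD regions, 79 were gained and 50 lost, 3.95 and 2.5% of them. Among all 60886 regions, 3.2% were gained and 2.14% lost, so both classes took slightly more of the TEAD regions than of all regions. Read the other way, 79 of 1951 gained regions had a TEAD site (4.05%, 3.26 to 5.02%) and 50 of 1303 lost regions (3.84%, 2.92 to 5.02%). The difference was 0.212 points (95% Newcombe interval -1.21 to 1.54). Crossed regions paired a single MCF10A library with the G12V library that bears the other replicate number, so that they follow no cell type, and they took 33 TEAD regions (3.68% of 896, where crossed regions are 1.47% of all). Gained regions exceeded crossed regions by 0.366 points (-1.28 to 1.79), and lost regions exceeded them by 0.154 (-1.56 to 1.74). The reversed site occurred in 30 gained (1.54%) and 7 lost regions (0.537%). This difference of 1 point (0.271 to 1.71) was larger than that of the TEAD site, so the control site also varied between the classes.

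The gained to lost comparison varied with base composition and window. In the tertile of regions with the lowest GC content, 5.52% of gained and 3.23% of lost regions had a TEAD site, and the difference was 2.29 points (-0.356 to 4.62). In the middle and high tertiles the order was the opposite, with 3.98 and 4.82%, and with 1.9 and 3.04%. All 3 intervals included 0. With the moved windows 94 gained (4.82%) and 49 lost regions (3.76%) had the site, a difference of 1.06 points (-0.402 to 2.44). Classes that needed fewer libraries gave other values. Without MCF10A replicate 1 the difference was 0.986 points (0.147 to 1.96), and between the libraries of one replicate number it was 0.554 (0.00793 to 1.09) for replicate 1 and 0.523 (0.112 to 0.917) for replicate 2. These 3 intervals, which cover counting error only, lay above 0. Without G12V replicate 1 the difference was -0.0993 points (-1.27 to 0.819). Without MCF10A replicate 2 it was 0.63 (-0.162 to 1.37), and without G12V replicate 2 it was 0.161 (-0.605 to 0.939). Pairs with unlike replicate numbers gave 0.538 (-0.127 to 1.1) for MCF10A replicate 1 with G12V replicate 2. For MCF10A replicate 2 with G12V replicate 1 the value was 0.406 (-0.143 to 1.03). All of these further intervals included 0.

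TEAD regions were spread over the calling classes much like all regions. One library alone called 1156 of them (57.9%, against 56.4% of all regions). A further 474 were called in 2 libraries (23.7%, against 23.1%) and 235 in 3 (11.8%, against 12.1%). All 4 libraries called 133 (6.66%, against 8.36%). The TEAD share was 3.37% of single-library and 2.61% of all-library regions, a difference of -0.755 points (-1.2 to -0.244). Promoters made up 47.4% of all-library regions and 7.01% of single-library regions. Outside promoters the order turned, with 3.85% of all-library and 3.54% of single-library regions, a difference of 0.304 points (-0.392 to 1.13).

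**Figure D3:**
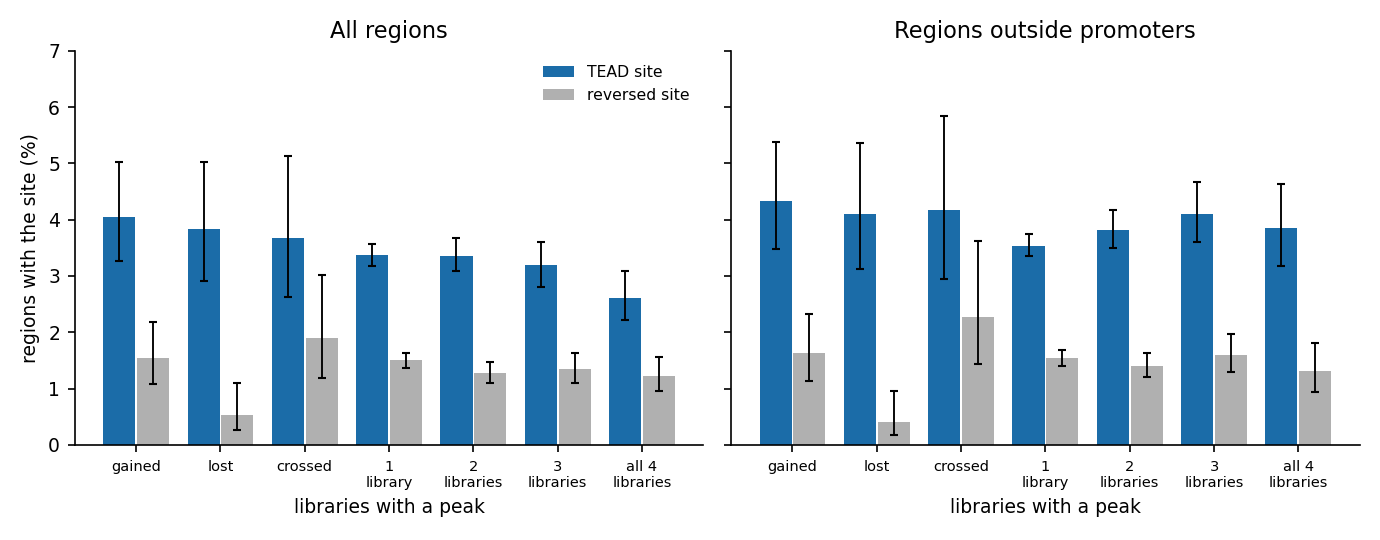
Percent of regions with a TEAD site or the reversed site by calling class, for all regions (left) and for regions outside promoters (right), with 95% Wilson intervals. Gained and lost regions overlap at about 4%, and the lower share of all-library regions (2.61%) is 3.85% once promoters are left out.

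TEAD regions lay mostly away from promoters. Regions counted as promoter-proximal when any base fell between 1000 bp before and 500 bp after a protein-coding TSS, as mid-range when they lay elsewhere within 100 kb of one, and as far beyond that. Only 95 TEAD regions were promoter-proximal (4.75%, 3.91 to 5.78%), against 76 reversed-site regions (8.9%, 7.17 to 11%) and 15.1% of all regions. Mid-range regions numbered 1070 (53.6%) and far regions 833 (41.7%). The median distance to a TSS was 70840 bp for TEAD regions, 63600 bp for reversed-site regions and 49276 bp for all regions.

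Each library showed the low promoter share. Of the TEAD regions 10.3 and 6.91% were promoter-proximal in the MCF10A replicates and 11.1 and 5.72% in the G12V replicates. Of the reversed-site regions these were 22.4 and 13.2%, and 21.7 and 10.5%. The mean difference was -8.47 points ± 3.5 (SD, n = 4), below 0 in 4 of 4 libraries (exact two-sided sign-flip permutation test, p = 0.12, the smallest possible). GC content was the same for both sets, with a median of 45.3%, against 48.7% for all regions. In the tertile of regions with the highest GC content, 20.9% of TEAD and 37.2% of reversed-site regions were promoter-proximal.

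The excess of the TEAD site over the reversed site was small at promoters. There the TEAD share was 1.04% (0.848 to 1.26%) and the reversed share 0.829% (0.663 to 1.04%), a ratio of 1.25. In mid-range regions the shares were 3.49 and 1.45%, a ratio of 2.4, and in far regions 3.95 and 1.58%, a ratio of 2.5. By distance from the TSS the TEAD share was 1.04% within 1 kb, 2.94% from 1 to 10 kb and 3.5 to 3.95% beyond that. Over tertiles of GC content the ratio was 2.36, 2.35 and 2.25 from low to high. By annotation, 1043 TEAD regions had their site between genes (52.2%), 861 in introns (43.1%), 55 in UTRs (2.75%), 20 in coding exons and 19 in exons of non-coding transcripts.

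**Figure D4:**
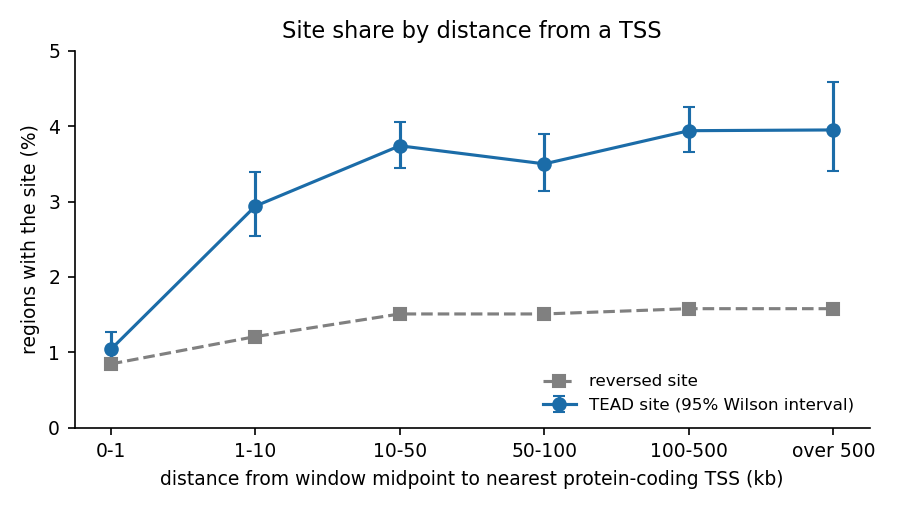
Percent of regions with a TEAD site (points with 95% Wilson intervals) or the reversed site (squares) by the distance from the window midpoint to the nearest protein-coding TSS. Both are lowest within 1 kb, where they nearly meet at 1.04 and 0.847%, and the TEAD share reaches 3.95% beyond 500 kb.

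Most members held a single site. There were 2049 TEAD sites in the 1998 windows, 49.5% of them on the plus strand. More than 1 site occurred in 47 TEAD windows (2.35%) and in 8 reversed-site windows (0.937%), a difference of 1.42 points (0.345 to 2.31). The TEAD share with more than 1 site was the higher in 4 of 4 libraries, between 1.94 and 2.73% against 0.68 to 1.12%. Of all windows, 3.28% held the TEAD site and 1.4% the reversed site. Each share with more than 1 site thus lay below the share of all windows with that site. The part of these base shares in the difference was not tested. Of 51 neighbouring pairs of TEAD sites, 29 pointed the same way, 14 towards each other and 8 apart. The run ATTCCATTCC, a stretch of a known satellite repeat, was in 19 windows (0.951% of TEAD windows, against 0.129% of windows without a site). Among reversed-site windows the share was 0.234%. The TEAD site itself ends in ATTCC, so every TEAD window already held part of the run. The part of this in the difference was not tested.

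The bases beside the site were compared with TEAD sites in all windows 1000 bp away, those that overlapped a peak included. The base before ACATTCC was C in 38.9% of accessible sites (36.9 to 41.1%) and in 30.1% of the distant ones (28.4 to 31.9%), a difference of 8.87 points (6.12 to 11.6). By library the share ran from 38.6 to 42.2%. The base after the site was T in 39.3 and 35.5%, a difference of 3.84 points (1.04 to 6.64). It was G, which would make a CpG, in only 3.9 and 3.44%.

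AP-1 sites were about as common beside TEAD sites as beside the control site. The 150 bp windows held an AP-1 site (TGACTCA on either strand) in 347 TEAD regions (17.4%, 15.8 to 19.1%), in 156 reversed-site regions (18.3%, 15.8 to 21%) and in 15.9% of regions without a TEAD site. TEAD minus reversed was -0.9 points (-4.06 to 2.09). The letters of the AP-1 site in reversed order occurred in 3.75, 3.63 and 3.08% of these windows, so AP-1 itself was far above its control in all 3 sets. Promoter windows held few AP-1 sites, with 3 of 95 TEAD regions, while mid-range and far TEAD regions had 18.1 and 18%.

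By library the AP-1 share of TEAD regions was 17.5 and 18.1% in the MCF10A replicates and 15.7 and 18.8% in the G12V replicates. The reversed-site regions had 19.7 and 20.4%, and 10.9 and 18.9%. The mean difference was 0.0575 points ± 3.35 (SD, n = 4), above 0 in 1 of 4 libraries (exact two-sided sign-flip permutation test, p = 1). Without G12V replicate 1 the mean was -1.65 points, so its sign rested on that library. With the moved windows the shares were 20.6% of TEAD and 18.2% of reversed-site regions, and the mean per-library difference was 3.29 points (exact sign-flip permutation test, p = 0.12). Gained and lost TEAD regions had an AP-1 site in 14 of 79 (17.7%) and 9 of 50 (18%), a difference of -0.278 points (-14.8 to 12.6).

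The gap to the nearest AP-1 site differed from the control in both directions. The nearest AP-1 site lay less than 10 bp away, with no shared base, for 65 of 2049 TEAD sites (3.17%, 2.5 to 4.02%) and 15 of 862 reversed sites (1.74%, 1.06 to 2.85%). The difference was 1.43 points (0.132 to 2.52). At gaps of 10 to 99 bp the shares were 20.6 and 21.8%. From 100 to under 200 bp TEAD sites had the lower share, 8.88% (7.73 to 10.2%) against 13% (10.9 to 15.4%), and within 500 bp the shares were 42.2 and 45.4%. The range under 10 bp was chosen after the gaps had been seen. In the MCF10A replicates its share was 3.81 and 3.43% for TEAD sites against 4.05 and 1.55% for reversed sites, and in the G12V replicates 4.92 and 3.54% against 2.15 and 1.55%. The TEAD share was thus higher in 3 of 4 libraries, from 14 to 56 TEAD sites and 4 to 10 reversed sites a library.

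**Figure D5:**
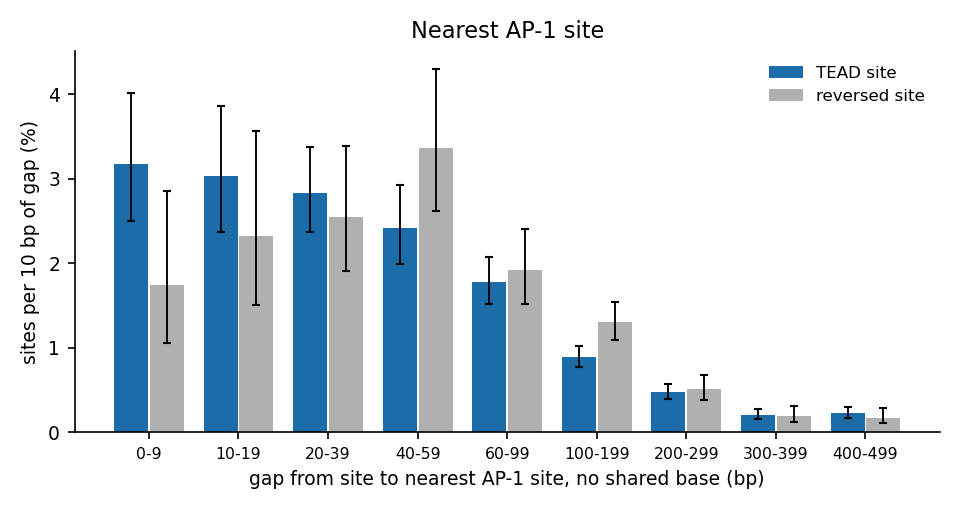
Percent of TEAD or reversed sites whose nearest AP-1 site lies in each gap range, divided by the width of the range and given per 10 bp, with 95% Wilson intervals. TEAD sites exceed reversed sites in the first range (3.17 against 1.74%) and lie below them from 100 to under 200 bp (8.88 against 13% before division), where the intervals do not overlap.

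In 9 regions the last base of the AP-1 site was the first base of the TEAD site. The joined letters were TGACTCACATTCC in 5 regions and TGAGTCACATTCC in 4. The reversed letters of either occurred in 0 of the 60886 windows, which allows a share of up to 0.00493%. The letters of the reversed site cannot share a base with an AP-1 site, so overlaps have no matched control. Of the 9, 4 were called in 1 library, and the one called in all 4 lay on chromosome 18, 266053 bp from CELF4, at percentiles 41.8, 80.9, 55.3 and 81.3 (MCF10A replicates 1 and 2, then G12V replicates 1 and 2). The region near SAXO1 on chromosome 9 was called in 3 libraries, at percentiles 85, 72.5 and 81.2, and not in MCF10A replicate 1.

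The RUNX site TGTGGTT, also bound in mammary epithelium, was in 109 TEAD windows (5.46%), 37 reversed-site windows (4.33%) and 3.73% of windows without a TEAD site. TEAD windows exceeded those without a TEAD site by 1.72 points (0.798 to 2.82) and reversed-site windows by 1.12 (-0.704 to 2.72). Its letters in reversed order were at 1.8, 1.76 and 1.66%. On the minus strand the TEAD site GGAATGT ends in TGT, with which TGTGGTT begins, so the sites can share these bases. The letters of the reversed site allow less sharing with TGTGGTT. The part of shared bases in the RUNX differences was not tested. TEAD windows had the higher RUNX share in 4 of 4 libraries, with 6.11, 4.96, 7.97 and 5.98% against 2.72, 4.04, 5.43 and 4.38% of reversed-site windows. Sites of grainyhead (AACCGGTT) and CEBP factors (TTGCGCAA) were also sought. They were in 1 and 2 TEAD windows (0.0501 and 0.1%), against 0.0458 and 0.0798% of windows without a TEAD site.

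CCN2 (CTGF), the secreted matricellular protein most used as a readout of YAP and TEAD, had 2 TEAD regions within 100 kb. The gained one (chr6:132275508-132276575) had its window midpoint 3529 bp upstream of the TSS and was called at percentiles 59 and 59.8 in G12V replicates 1 and 2 and in neither MCF10A library. Its window holds 1 of the 9 joined pairs, printed above as GGAATGTGACTCA. The other, 28990 bp upstream, was called at percentiles 33.4 in MCF10A replicate 2, 41.7 in G12V replicate 1 and 69.5 in G12V replicate 2, and has no AP-1 site in its window.

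CCN1 (CYR61), its close relative, had a TEAD region 26684 bp downstream of its TSS (chr1:86072309-86073657), with an AP-1 site 7 bp from the TEAD site. It ranked at percentiles 89.3 in MCF10A replicate 2, 74.5 in G12V replicate 1 and 98.6 in G12V replicate 2, and was not called in MCF10A replicate 1, the shortest list. A second CCN1 region, 53308 bp upstream in an intron of DDAH1, was called only in G12V replicate 2 (percentile 51.3) and holds 2 TEAD sites.

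AMOTL2, which binds YAP and restrains it, had a TEAD region 52117 bp upstream (chr3:134145897-134147114) with 2 AP-1 sites in the window, the nearer 24 bp from the TEAD site. It was called at percentiles 78.9 and 90.9 in the MCF10A replicates and 96.4 in G12V replicate 2. Its second region, 23012 bp downstream, was called in MCF10A replicate 1 alone (percentile 42.4). FJX1, a secreted glycoprotein, had the one promoter-proximal region among the targets, 442 bp upstream, at percentiles 44.5, 17.7 and 72.2 in the same 3 libraries as the AMOTL2 region. A second FJX1 region, 68401 bp upstream, was called in G12V replicate 2 (35.5).

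NUAK2, a kinase of the AMPK family, had a region 20205 bp downstream at percentiles 11.9 in MCF10A replicate 1 and 42 in G12V replicate 2. Its other region, 23084 bp downstream with 2 TEAD sites, was called in G12V replicate 2 alone (54.4). DOCK5, an activator of the GTPase RAC, had the other gained region, 10911 bp into the gene, at percentiles 79.2 and 42.6 in G12V replicates 1 and 2, with an AP-1 site 29 bp from the TEAD site. ASAP1, a GTPase-activating protein for ARF, had a region 39836 bp upstream at 20.1 in MCF10A replicate 2 and 63.8 in G12V replicate 2, and TGFB2, a TGF-beta ligand, had one 85251 bp upstream in G12V replicate 2 alone (28.6).

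Of 22 target genes, these 8 (36.4%) had a TEAD region within 100 kb, against 2614 of 20098 protein-coding genes (13%). A reversed-site region lay near 4 of the 22 (18.2%), against 6.75% of all genes, so the control site was also more frequent around the targets. The targets also lay among more regions, with a median of 10 within 100 kb against 5. Of the 209 regions around them, 13 had a TEAD site (6.22%, against 2.52% around all genes) and 1.91% the reversed site (against 1.25%). A gained TEAD region lay near 2 targets (CCN2 and DOCK5), and a lost one or one called in all 4 libraries near none. Of the 20098 protein-coding genes, 102 had a gained, 64 a lost and 188 an all-library TEAD region within 100 kb. Such regions were thus rare near any gene, and their absence near 22 targets says little. ANKRD1, AXL, F3 and MYOF, which are also much-used targets, had none among 7, 5, 7 and 14 regions. Of 21 genes of the pathway itself, 4 had a TEAD region within 100 kb (19%), namely AMOTL2, AMOTL1, VGLL2 and YAP1. TEAD1, TEAD2, TEAD3, TEAD4, WWTR1 (TAZ) and the kinases had none. The targets and pathway genes were listed from general knowledge, and no test was made of these counts.

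The best-ranked gained TEAD region lay 27417 bp from INSIG1, a regulator of sterol synthesis, at percentiles 84.9 in G12V replicate 1 and 75.8 in G12V replicate 2. Others among the 5 best had a lowest percentile of 71.6 to 72.8. They lay 205735 bp from UBE2E3, in an intron of MTAP, which encodes an enzyme of methionine salvage, and in an intron of ANKRD42. The ANKRD42 window held an AP-1 site 11 bp from the TEAD site. Among gained regions with an AP-1 site, the next in rank after it lay 6715 bp from HTR1B (percentiles 70.4 and 80), then came the CCN2 region and one 188147 bp from UBE3D (50 and 74.5).

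The best-ranked lost TEAD region (chr13:103563583-103564387), between genes and 31594 bp from METTL21EP, stood at percentile 94.4 in both MCF10A replicates and was in neither G12V list. Its AP-1 site lay 68 bp from the TEAD site. The next 4 lay 404099 bp from ATP11B (92 and 92.7), in an intron of ENSG00000275163 (95.4 and 91.9), 91912 bp from MBL2 (89.5 and 92.2) and 162513 bp from LRRN1 (89.2 and 86.3).

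Lost regions with an AP-1 site continued with one 173245 bp from FN1, which encodes fibronectin, at percentiles 82.6 and 79.4 in MCF10A replicates 1 and 2. The gap between its TEAD and AP-1 sites was 42 bp. The remaining 3 lay 53870 bp from KY, in an intron of MTHFD1L and in an intron of FRMD4A, with gaps of 56, 11 and 10 bp and lowest percentiles of 72.5, 64.9 and 63.4.

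Of the regions called in all 4 libraries, the highest (chr6:58776247-58779456) stood at percentile 100 in every list. It ended 710 bp from a run of unknown bases in the assembly and lay 1598259 bp from PRIM2. Peaks beside such runs were not filtered out, and any part of the assembly in this rank was not tested. The promoter of GPR39, a zinc-sensing receptor, had percentiles of 99.3 to 99.8. A further 2 regions lay in introns of TENM2 (98.8 to 99.7) and SLC30A10 (95.5 to 98.8), and the SLC30A10 window held an AP-1 site 29 bp from the TEAD site.

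By chromosome the TEAD share ran from 1.84% on chromosome 19 (22 of 1197 regions) to 4.43% on chromosome 4 (166 of 3747). Chromosome 19 had the highest share of promoter-proximal regions (43.4%) and a median GC content of 61.3%, and chromosome 4 had 11 and 44.7%. The part of promoters and GC content in this range was not tested. The reversed site was at 1.09 and 1.39% on the same chromosomes.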

How the data were processed

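ATAC-seq peaks of 2 MCF10A and 2 G12V libraries were analysed. Per the study's methods, the authors kept uniquely aligned reads, placed read starts at the centre of each insertion and then ran MACS (tag size 51, no model, shift size 75, local window 25000 bp, p threshold 0.0001). The submitters' processing notes name Bowtie and hg19. The study pooled replicates for its own calls, whereas the deposited lists are per library. The values are peak scores, which the authors deposited from MACS as 10 times the negative log10 of the p-value. The lowest was 40. They depend on depth and were used only as percentiles within a list. No read counts or summits were used here.

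From these lists, regions, windows and sites were built as described in the report, with sequence from GRCh37 and gene starts from GENCODE release 44 on GRCh37 (20098 protein-coding genes). The reversed site and windows 1000 bp away were the controls. Shares have 95% Wilson intervals and differences 95% Newcombe intervals. Library values were compared by exact two-sided permutation tests with a threshold of 0.05, which this design cannot reach, and regions got no test. Because libraries share regions, their values are not independent.

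Named regions were the 5 gained, 5 lost and 5 all-library TEAD regions with the highest lowest percentile, the 5 gained and 5 lost ones with an AP-1 site, and those within 100 kb of 22 YAP/TAZ-TEAD targets, naming 8 genes. The 21 pathway genes were counted. Of these, 2 regions are not reported here. The members and lists were chosen with earlier results of these data known. The alternatives tried were only the better-scoring 50% of each list, equal list sizes (12888 peaks), other site letters, windows of 100 and 300 bp or whole regions, merging within 200 bp, all annotated TSSs, a wider AP-1 search, GC tertiles, leaving out each library and a replicate block. Chosen after seeing the data were windows moved by 75 bp, regions outside promoters and crossed replicate numbers.

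Python 3.11.15, numpy 2.4.6, pandas 2.3.3, pysam 0.24.0 and matplotlib 3.10.9 were used. Merging, site search, intervals and permutation tests were tested on simulated data.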

Additional observations from a re-analysis of the deposited data

How the results depend on the processing

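The higher share of the TEAD site than of the reversed site, the higher mean TEAD share in G12V libraries and the lower promoter share of TEAD regions kept their direction under every alternative computed for them (15, 16 and 14 settings), and none of these tests could pass the threshold. Leaving out each library in turn gave 1.56 to 1.84, 0.0182 to 0.343 and -8.03 to -6.99 points for these 3. The mean AP-1 difference (0.0575 points) turned negative with windows of 300 bp (-1.59), whole regions (-0.953), AP-1 sites within 500 bp (-1.34) and regions outside promoters (-0.813), and ranged from -1.65 to 0.95 when each library was left out. This difference was larger and positive with the site CATTCCA (3.41), windows moved by 75 bp (3.29) and the better-scoring 50% of each list (2.44). Windows of 100 bp (1.58) and equal list sizes (1.34) also raised it. Its sign turned in 5 settings and stayed in 10, so it depended on the site letters and the window. The gained minus lost difference (0.212) was 1.94 points in whole regions and 2.29 in the lowest tertile of GC content, and ranged from -0.0993 when G12V replicate 1 was left out to 0.986 when MCF10A replicate 1 was (interval 0.147 to 1.96). The all-library minus single-library difference (-0.755) was -1.9 points with windows of 300 bp, -1.34 with windows moved by 75 bp, 0.304 outside promoters and 5.67 in whole regions, which had a median length of 1158 bp against 440 bp. It ranged from -0.873 to -0.552 when each library was left out. The number of TEAD regions ran from 815 with equal list sizes to 6848 in whole regions. With the replicate number as a block the cell type difference was by construction the same 0.208 points (exact sign-flip permutation test over 2 pairs, p = 0.5). The block and the crossed numbers, both counted among the 16 settings, rearrange the same library shares and could not change that difference. Under the block, gained minus lost was 0.538, from 0.554 (0.00793 to 1.09) and 0.523 (0.112 to 0.917) within replicates 1 and 2. Replicates deviated from their group means with a correlation of -0.113 between same-numbered libraries, so they were not treated as paired, although same-numbered lists were alike in size. With crossed numbers a TEAD site was in 1302 of 37440 and 147 of 4296 gained regions, and in 95 of 3232 and 752 of 24937 lost ones. Other causes of these changes were not tested. List size limits which regions can be called absent.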
